A study of Mus musculus with 9 samples.

Results

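The genes described here are 40 collagens, proteoglycans and other matrix genes of the fibrotic extracellular matrix, measured by RNA sequencing of mouse spinal cord. They were taken from a list of 40 symbols, each required to hold 10 or more counts in 3 or more libraries. All 40 were found under their symbols and met this rule, as did 16817 of the 27179 identifiers in the table. The list was drawn up with results of these data already known. The 9 animals were C57BL/6 mice, 3 to a group. EAE+EHP-101 mice had experimental autoimmune encephalomyelitis (EAE), an immune-mediated model of multiple sclerosis, and received oral EHP-101 at a dose of 20 mg/kg. EAE mice had the disease without the compound, and Control mice are labelled only as controls. EHP-101 is a code name, and the compound is known as a dual agonist of PPAR gamma and the cannabinoid receptor CB2. The labels used here do not state the animals' sex and age, the antigen, the day of sampling or how long the compound was given. Levels are normalised counts scaled to a common library size (CPM), and levels of different genes are compared only per kilobase of gene (RPKM).

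Collagens of the fibrillar kind form tensile fibres in connective tissue, and type I collagen is assembled from the products of Col1a1 and Col1a2. Small leucine-rich proteoglycans such as lumican, decorin and fibromodulin bind these fibres and set their spacing, while lysyl oxidases crosslink them. Type IV collagen, by contrast, forms the sheet of the basement membrane around vessels. In the healthy cord fibrillar collagen is largely kept to the meninges and larger vessels, and after inflammation or injury perivascular fibroblasts can lay down a fibrotic scar.

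The 9 libraries held 30448507 to 32661741 counts and were close in depth. The first principal component carried 67.0% of the variance of all genes and separated Control from EAE, with EAE+EHP-101 replicate 1 the treated library nearest to Control. Spinal cord genes, among them the myelin gene Mbp, summed to 31184 to 40053 CPM in each library. Control replicate 1 held 60.5 CPM of skeletal muscle genes, against 4.46 to 6.50 CPM in the 8 other libraries. Control replicate 3 stood lowest of the 3 Controls for 19 of the 40 members, EAE replicate 3 lowest of the EAE libraries for 24 and EAE+EHP-101 replicate 1 lowest of the treated libraries for 24.

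In EAE 4 of the 5 fibrillar collagens, 4 of the 6 proteoglycans and 6 of the 8 matricellular glycoproteins were higher than in Control, while 2 of the 6 basement membrane members were higher and 2 were lower. Of the 40 members 23 rose and 2 fell in EAE against Control, where a call is an adjusted p under 0.05 from the quasi-likelihood test of edgeR with Benjamini-Hochberg adjustment over 16749 genes. Over all genes tested 20.2% rose and 16.7% fell, 37% in either direction. The median log2 fold change of the members was 0.69, against 0.01 over all genes. Every EAE library lay above every Control library for 25 members and below for 3, where 25.6% and 21.1% of all genes did so. In EAE+EHP-101 against EAE 1 member rose and 14 fell, beside 0.43% and 4.81% of all genes, 5.24% in either direction. The members' median was -0.39, against 0.00 over all genes, and 23 members lay below without overlap and 2 above, beside 16.9% and 10.7% of all genes. Both comparisons share the EAE libraries, so they are not independent. These are levels in whole tissue, in which more cells of a kind and more RNA per cell cannot be told apart.

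**Figure D1:**
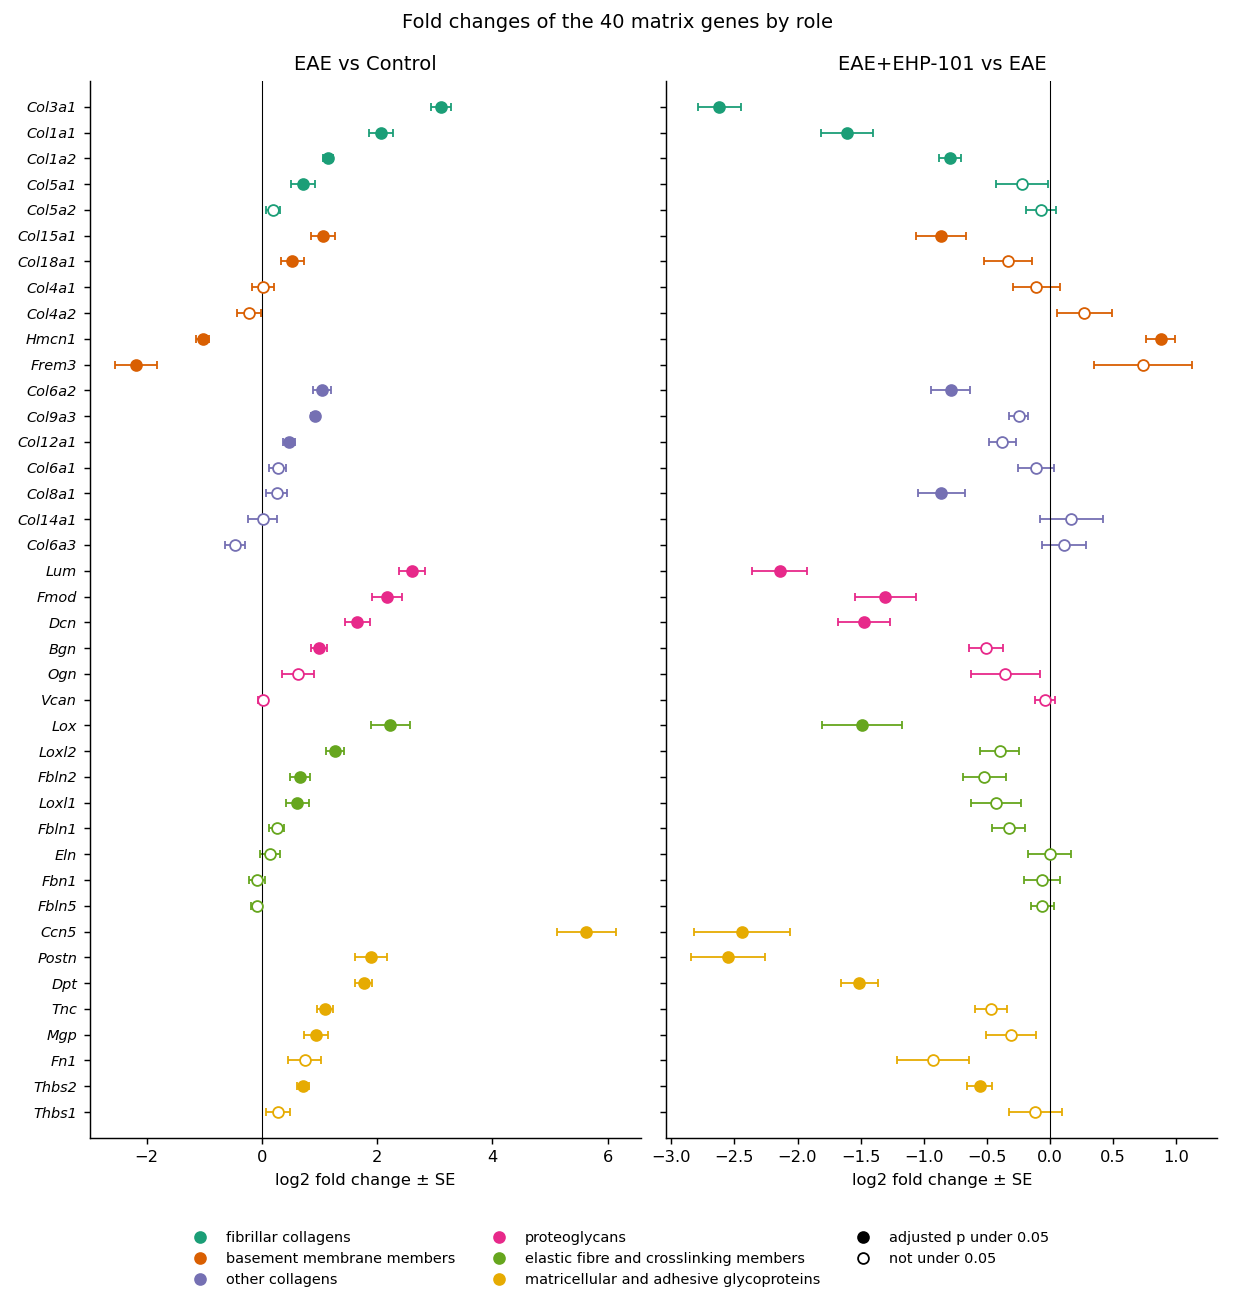
Log2 fold change with its standard error for the 40 members, grouped by role and ordered within each role by the change in EAE, for EAE against Control on the left and EAE+EHP-101 against EAE on the right. Filled points have an adjusted p under 0.05. Most points lie right of 0 on the left and left of 0 on the right, while Hmcn1, Frem3, Col4a2 and Col6a3 lie on the other side in both panels, of which Hmcn1 is filled in both and Frem3 on the left.

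Of the 5 fibrillar collagens 4 rose in EAE and 3 fell in EAE+EHP-101 against EAE, with median log2 fold changes of 1.15 and -0.79. Col3a1, the chain of type III collagen, held 4.83, 5.69 and 7.46 CPM in EAE+EHP-101 mice, 35.2, 40.5 and 35.0 CPM in EAE mice, and 4.14, 5.35 and 3.28 CPM in Control mice. All EAE libraries were above all others, and the treated and Control libraries overlapped. Col3a1 rose 8.65-fold in EAE (log2 3.11, SE 0.18, edgeR adjusted p = 1.13e-05), the largest change of any member after Ccn5. It was 6.15-fold lower in EAE+EHP-101 than in EAE (log2 -2.62, SE 0.17, edgeR adjusted p = 0.000104). Col1a1 encodes the alpha 1 chain of type I collagen and had 4.86, 7.70 and 8.52 CPM in EAE+EHP-101 mice, 22.0, 23.2 and 19.0 CPM in EAE mice, and 6.31, 5.35 and 3.67 CPM in Control mice. Again only the EAE libraries stood apart. Its rise in EAE was 4.19-fold (log2 2.07, SE 0.21, edgeR adjusted p = 6.2e-05), and in treated mice it was 3.05-fold lower than in EAE (log2 -1.61, SE 0.20, edgeR adjusted p = 0.00218). Col1a2 encodes the partner chain, and had 27.8, 27.8 and 33.0 CPM in EAE+EHP-101 mice, 52.7, 50.3 and 50.3 CPM in EAE mice, and 22.4, 25.7 and 20.8 CPM in Control mice. The 3 groups did not overlap, and the treated libraries lay between EAE and Control. Col1a2 rose 2.22-fold in EAE (log2 1.15, SE 0.09, edgeR adjusted p = 2.78e-05) and was 1.73-fold lower with EHP-101 than without (log2 -0.79, SE 0.09, edgeR adjusted p = 0.00139).

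The other fibrillar members are chains of type V collagen, which nucleates fibrils. Col5a1 had 8.19, 11.2 and 8.07 CPM in EAE+EHP-101 mice, 9.63, 11.7 and 10.6 CPM in EAE mice, and 6.96, 8.32 and 4.19 CPM in Control mice. Its EAE libraries lay above Control and overlapped the treated ones. Col5a1 rose 1.64-fold in EAE (log2 0.71, SE 0.21, edgeR adjusted p = 0.0215), a call lost without EAE replicate 2 (adjusted p = 0.0888) and at log2 0.45 without Control replicate 3, and its difference between treated and EAE mice was log2 -0.22 (edgeR adjusted p = 0.667). Col5a2 had 20.4, 19.2 and 20.6 CPM in EAE+EHP-101 mice, 22.8, 20.9 and 19.4 CPM in EAE mice, and 19.0, 21.3 and 14.7 CPM in Control mice, and all groups overlapped. Its log2 difference was 0.20 for EAE against Control (edgeR adjusted p = 0.217) and -0.07 for EAE+EHP-101 against EAE (edgeR adjusted p = 0.827). Col3a1 (chr1:45311538-45349706, forward strand) and Col5a2 (chr1:45374331-45503282, reverse strand) are neighbours, 24624 bases apart in mm10. Within a library the ratio of Col3a1 to Col5a2 in RPKM was 0.281 to 0.430 in EAE+EHP-101 and 1.83 to 2.30 in EAE, and 0.259 to 0.298 in Control. The ratio of Col1a1 to Col1a2 was 0.191 to 0.302 in treated, 0.413 to 0.504 in EAE and 0.193 to 0.307 in Control libraries. In both ratios every EAE library stood above all others, and the treated and Control libraries overlapped.

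**Figure D2:**
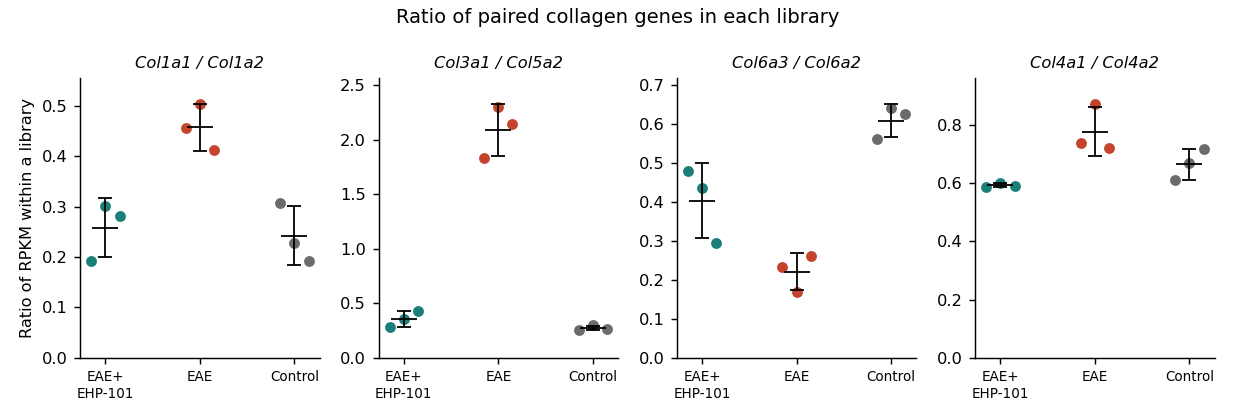
Ratio of the RPKM of paired collagen genes in each library, with mean and SD for the 3 libraries of each group. The EAE libraries stand above the others for Col1a1 over Col1a2 and for Col3a1 over Col5a2, reaching 2.30 for Col3a1 over Col5a2, and below the others for Col6a3 over Col6a2, at 0.170 to 0.262.

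Promoter sequences are shown for Col3a1 and Col1a2, fibrillar collagens that rose in EAE and were lower with EHP-101, and for Hmcn1, the member that moved the opposite way in both comparisons. Each is the 250 bases before the annotated start, 5′ to 3′ along the gene, from RefSeq on GRCm38.p6, at chr1:45311288-45311537 (forward strand), chr6:4505368-4505617 (forward strand) and chr1:150993436-150993685 (reverse strand). Capitals mark CCAAT and TATAAA or their reverse complements ATTGG and TTTATA.
Col3a1: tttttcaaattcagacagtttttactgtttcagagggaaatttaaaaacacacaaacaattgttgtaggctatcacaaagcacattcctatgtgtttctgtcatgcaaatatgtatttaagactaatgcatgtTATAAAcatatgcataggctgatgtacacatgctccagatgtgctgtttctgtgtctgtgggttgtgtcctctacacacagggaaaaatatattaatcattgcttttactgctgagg
Col1a2: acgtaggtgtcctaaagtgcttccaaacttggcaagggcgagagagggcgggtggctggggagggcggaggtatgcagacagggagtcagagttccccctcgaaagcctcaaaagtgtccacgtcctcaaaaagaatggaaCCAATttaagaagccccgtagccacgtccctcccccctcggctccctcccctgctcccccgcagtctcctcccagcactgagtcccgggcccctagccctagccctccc
Hmcn1: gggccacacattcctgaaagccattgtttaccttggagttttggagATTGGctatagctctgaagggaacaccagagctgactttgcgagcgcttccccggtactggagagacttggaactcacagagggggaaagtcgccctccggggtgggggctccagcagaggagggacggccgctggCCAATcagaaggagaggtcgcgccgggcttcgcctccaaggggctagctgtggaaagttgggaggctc
Col3a1 holds TATAAA, the letters of a TATA box, 117 bases before the start, and whether they act as one was not tested. Col1a2 holds CCAAT 109 bases before a start that lies 79 bases from the one in the deposited table. Hmcn1 holds CCAAT 68 bases before the start and its reverse complement 204 bases before. Promoters were matched for 25 of the 40 members. CCAAT, on either strand, stood in 8 of the 25 and in 33.8% of all 32851 promoter windows of this length. TATAAA stood in 5 of the 25, Col3a1, Ogn, Postn, Thbs2 and Tnc, and in 12.4% of all windows.

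Of the 6 proteoglycans 4 rose in EAE and 3 of these fell in EAE+EHP-101 against EAE, with medians of 1.33 and -0.90 on the log2 scale, the furthest from 0 of the 6 roles. Lumican (Lum), which binds collagen fibrils, had 2.11, 2.33 and 3.33 CPM in EAE+EHP-101 mice, 10.6, 13.3 and 10.4 CPM in EAE mice, and 1.35, 1.74 and 2.56 CPM in Control mice. Every EAE library was above every other library, and the treated and Control libraries overlapped. Lum rose 6.07-fold in EAE (log2 2.60, SE 0.23, edgeR adjusted p = 3.28e-05) and was 4.41-fold lower in treated mice than in EAE (log2 -2.14, SE 0.22, edgeR adjusted p = 0.000961). Decorin (Dcn), which also binds TGF-beta, had 11.0, 15.6 and 23.3 CPM in EAE+EHP-101 mice, 43.5, 46.4 and 48.9 CPM in EAE mice, and 17.5, 13.0 and 13.4 CPM in Control mice. It showed the same order of groups, with treated replicate 3 the highest outside EAE. Dcn rose 3.16-fold in EAE (log2 1.66, SE 0.21, edgeR adjusted p = 0.000204) and was 2.78-fold lower with EHP-101 (log2 -1.47, SE 0.21, edgeR adjusted p = 0.00277). Dcn (chr10:97479500-97518162) and Lum (chr10:97565501-97572703) lie on the same strand 47338 bases apart. Fibromodulin (Fmod), which shares a binding site on collagen with lumican, had 6.62, 8.76 and 11.5 CPM in EAE+EHP-101 mice, 19.7, 30.3 and 16.4 CPM in EAE mice, and 5.78, 5.06 and 3.90 CPM in Control mice. The 3 groups did not overlap, although EAE replicate 2 stood well above the other EAE libraries. Fmod rose 4.51-fold in EAE (log2 2.17, SE 0.25, edgeR adjusted p = 0.000134) and was 2.47-fold lower with EHP-101 (log2 -1.30, SE 0.24, edgeR adjusted p = 0.00929).

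Biglycan (Bgn), a relative of decorin, had 15.4, 18.1 and 22.6 CPM in EAE+EHP-101 mice, 25.0, 31.2 and 23.5 CPM in EAE mice, and 13.4, 13.0 and 13.5 CPM in Control mice, again without overlap between groups. Bgn rose 2.0-fold in EAE (log2 1.0, SE 0.14, edgeR adjusted p = 0.000333). Its difference between treated and EAE mice missed the threshold (log2 -0.50, SE 0.14, edgeR adjusted p = 0.0558). That difference passed with the DESeq2 Wald test (adjusted p = 0.0120), with no filter on low counts (0.0370) and without treated replicate 3 (0.0121). Osteoglycin (Ogn) averaged 2.0 ± 0.879 CPM in EAE+EHP-101, 2.56 ± 0.495 CPM in EAE and 1.66 ± 0.180 CPM in Control (SD, n = 3 each), at log2 0.63 in EAE (edgeR adjusted p = 0.0971, 0.0400 with only the groups compared and 0.0312 without treated replicate 3). Versican (Vcan), a large chondroitin sulfate proteoglycan of a different structure from these leucine-rich members, averaged 50.0 ± 1.95 CPM in EAE+EHP-101, 51.4 ± 2.89 CPM in EAE and 50.8 ± 5.18 CPM in Control, with log2 differences of 0.02 in EAE against Control (edgeR adjusted p = 0.886) and -0.04 with EHP-101 against EAE (edgeR adjusted p = 0.854). Vcan is the second longest member, and with the length trend of each library removed its change in EAE was log2 0.43 (adjusted p = 0.0180).

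**Figure D3:**
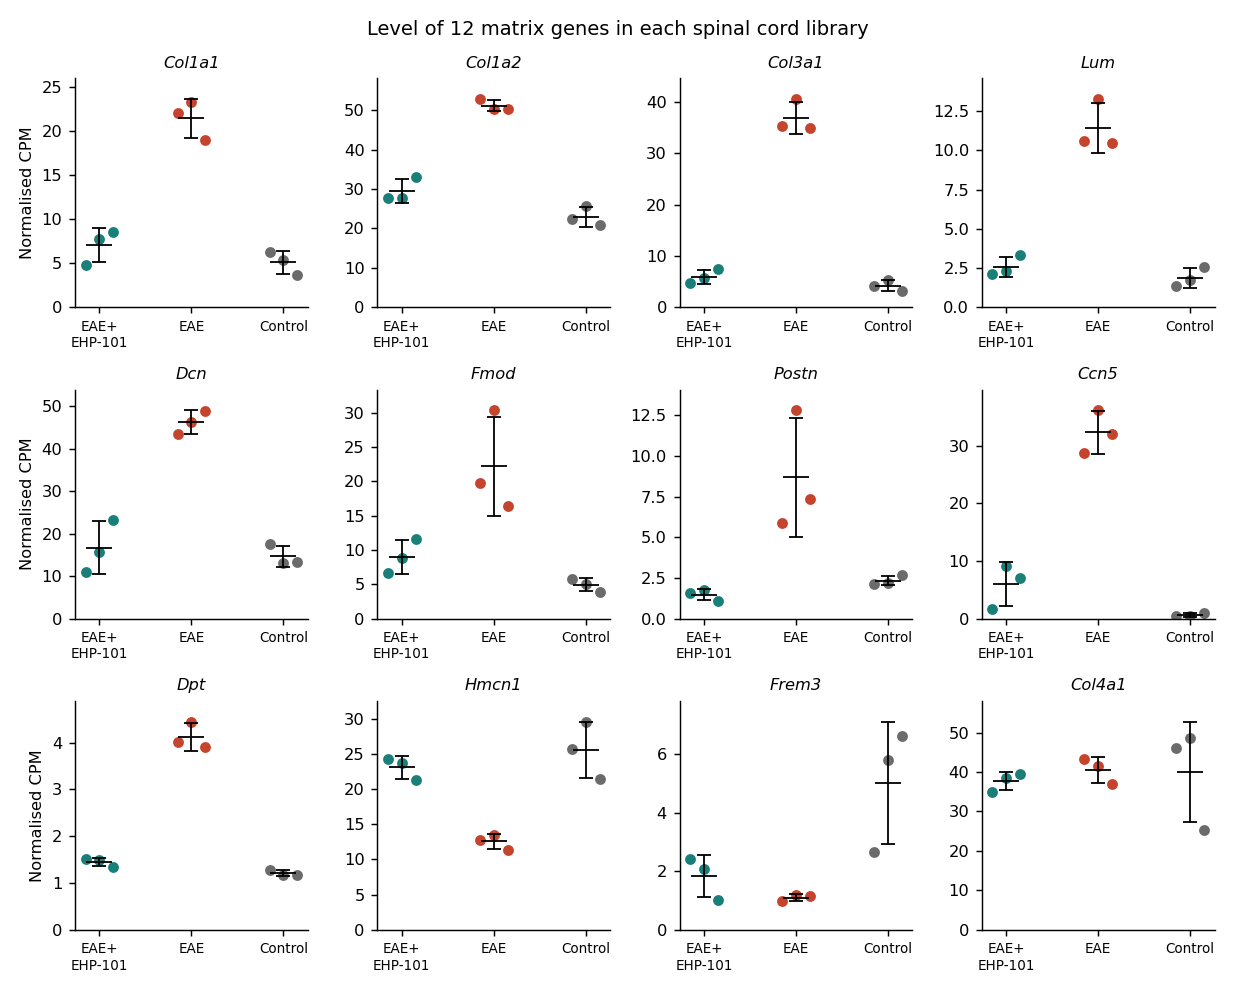
Normalised CPM of 12 members in each library, on axes from 0, with the mean and SD of the 3 libraries of each group. The EAE libraries stand above all others for the fibrillar, proteoglycan and matricellular genes shown and below all others for Hmcn1, while Col4a1 overlaps, with Control replicate 3 lowest at 25.3 CPM.

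Of the 8 matricellular and adhesive glycoproteins 6 rose in EAE and 4 fell with EHP-101 against EAE, at medians of 1.02 and -0.74. Ccn5, a CCN family protein known to restrain smooth muscle proliferation, had 1.73, 9.05 and 7.11 CPM in EAE+EHP-101 mice, 28.8, 36.1 and 32.0 CPM in EAE mice, and 0.493, 0.443 and 1.02 CPM in Control mice. Its groups did not overlap, and treated replicate 1 lay nearest to Control. Ccn5 rose 49.5-fold in EAE (log2 5.63, SE 0.51, edgeR adjusted p = 3.54e-05), the largest fold of the 40 members, on 3107 counts summed over the EAE libraries and 60 over the Control libraries. With EHP-101 it was 5.42-fold lower than in EAE (log2 -2.44, SE 0.38, edgeR adjusted p = 0.00431). Periostin (Postn), which binds type I collagen and tenascin C, had 1.57, 1.78 and 1.09 CPM in EAE+EHP-101 mice, 5.89, 12.8 and 7.36 CPM in EAE mice, and 2.13, 2.18 and 2.65 CPM in Control mice. EAE stood above both other groups, and the treated libraries all lay below Control (log2 -0.65, edgeR adjusted p = 0.164). Postn rose 3.73-fold in EAE (log2 1.90, SE 0.28, edgeR adjusted p = 0.000436) and was 5.86-fold lower with EHP-101 (log2 -2.55, SE 0.29, edgeR adjusted p = 0.00141). Dermatopontin (Dpt), a small protein that binds decorin, had 1.5, 1.49 and 1.34 CPM in EAE+EHP-101 mice, 4.02, 4.45 and 3.90 CPM in EAE mice, and 1.28, 1.17 and 1.18 CPM in Control mice, with no overlap between groups. Dpt rose 3.40-fold in EAE (log2 1.76, SE 0.15, edgeR adjusted p = 3.28e-05) and was 2.85-fold lower with EHP-101 (log2 -1.51, SE 0.15, edgeR adjusted p = 0.000961).

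Thrombospondin 2 (Thbs2), an inhibitor of angiogenesis, had 36.2, 45.4 and 40.3 CPM in EAE+EHP-101 mice, 57.0, 67.6 and 54.6 CPM in EAE mice, and 33.9, 37.7 and 37.7 CPM in Control mice, with EAE above the others. Thbs2 rose 1.64-fold in EAE (log2 0.71, SE 0.10, edgeR adjusted p = 0.000347) and was 1.47-fold lower with EHP-101 (log2 -0.56, SE 0.10, edgeR adjusted p = 0.00804). Tenascin C (Tnc), a glycoprotein of remodelling tissue, had 10.8, 13.6 and 12.1 CPM in EAE+EHP-101 mice, 18.2, 16.7 and 15.7 CPM in EAE mice, and 6.34, 8.19 and 9.11 CPM in Control mice, without overlap. Tnc rose 2.14-fold in EAE (log2 1.1, SE 0.13, edgeR adjusted p = 0.000168), and its difference between treated and EAE mice missed the threshold (log2 -0.47, SE 0.13, edgeR adjusted p = 0.0639). That difference passed with the DESeq2 Wald test (adjusted p = 0.0203) and with only the groups compared (0.0368). It also passed without Control replicate 1 (0.0341) or Control replicate 3 (0.0425). Matrix Gla protein (Mgp), an inhibitor of calcification, had 6.78, 8.28 and 11.8 CPM in EAE+EHP-101 mice, 10.1, 12.2 and 11.0 CPM in EAE mice, and 7.23, 5.35 and 4.72 CPM in Control mice, and its EAE and treated libraries overlapped. Mgp rose 1.92-fold in EAE (log2 0.94, SE 0.20, edgeR adjusted p = 0.00408), a call that ended with the length trend removed (log2 0.60, adjusted p = 0.0521). Mgp is the shortest member, at 599 bases. Fibronectin (Fn1), onto which fibroblasts assemble collagen, had 29.6, 41.4 and 54.4 CPM in EAE+EHP-101 mice, 86.8, 90.8 and 60.8 CPM in EAE mice, and 58.9, 57.2 and 26.3 CPM in Control mice. Its EAE libraries were above all others, but Control replicate 3 and EAE replicate 3 were each far below the rest of their group. Fn1 did not pass in EAE (log2 0.74, SE 0.28, edgeR adjusted p = 0.0599), and did so without EAE replicate 3 (adjusted p = 0.0438), without treated replicate 1 (0.0429) and with the length trend removed (0.0234), while it was at log2 0.42 without Control replicate 3 (0.151). With EHP-101 its difference from EAE was log2 -0.93 (edgeR adjusted p = 0.101). The adjusted p was 0.0450 with only the groups compared and 0.0234 without Control replicate 3. Thbs1, an activator of latent TGF-beta, averaged 8.45 ± 0.891 CPM in EAE+EHP-101, 9.15 ± 1.91 CPM in EAE and 7.56 ± 2.23 CPM in Control, and passed in neither comparison.

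Of the 8 elastic fibre and crosslinking members 4 rose in EAE and 1 fell with EHP-101 against EAE, at medians of 0.43 and -0.36, and the rises were in 3 lysyl oxidases and fibulin 2. Lox, which crosslinks collagen and elastin, had 0.512, 0.485 and 0.801 CPM in EAE+EHP-101 mice, 1.72, 1.47 and 1.87 CPM in EAE mice, and 0.526, 0.158 and 0.393 CPM in Control mice. EAE stood above both other groups. Lox rose 4.69-fold in EAE (log2 2.23, SE 0.34, edgeR adjusted p = 0.000575), on 163 counts summed over EAE and 33 over Control libraries. It was 2.81-fold lower with EHP-101 (log2 -1.49, SE 0.31, edgeR adjusted p = 0.0182), a call lost without any 1 of EAE replicates 1, 2 and 3 or treated replicates 1 and 2 (adjusted p = 0.0518 to 0.0860). Loxl2, an oxidase that also crosslinks type IV collagen, had 10.5, 14.6 and 11.6 CPM in EAE+EHP-101 mice, 14.5, 18.9 and 14.9 CPM in EAE mice, and 5.35, 7.66 and 7.01 CPM in Control mice. Both diseased groups lay above Control and overlapped each other. Loxl2 rose 2.41-fold in EAE (log2 1.27, SE 0.16, edgeR adjusted p = 0.000221), and its difference between treated and EAE mice was log2 -0.40 (edgeR adjusted p = 0.221). Loxl1, needed for elastic fibre upkeep, had 3.71, 3.2 and 3.46 CPM in EAE+EHP-101 mice, 4.62, 4.20 and 5.11 CPM in EAE mice, and 3.22, 3.86 and 2.03 CPM in Control mice, with EAE above the others, and rose 1.53-fold (log2 0.61, SE 0.20, edgeR adjusted p = 0.0331). That call was lost without Control replicate 1 or 3, EAE replicate 1, 2 or 3 or treated replicate 2, at adjusted p = 0.0514 to 0.102, and the change was log2 0.36 without Control replicate 3. Fibulin 2 (Fbln2) had 3.65, 3.95 and 4.55 CPM in EAE+EHP-101 mice, 5.56, 6.86 and 4.99 CPM in EAE mice, and 4.01, 4.11 and 2.85 CPM in Control mice, with EAE above the others, and rose 1.58-fold (log2 0.66, SE 0.17, edgeR adjusted p = 0.0116), lost without EAE replicate 2 (adjusted p = 0.0694). Elastin (Eln), fibrillin 1 (Fbn1), Fbln1 and Fbln5, structural and accessory proteins of elastic fibres, lay between log2 -0.09 and 0.26 in EAE and passed in neither comparison.

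Among 7 collagens of other kinds 3 rose in EAE and 2 fell with EHP-101 against EAE, at medians of 0.28 and -0.25. Type VI collagen is a beaded filament assembled from 3 chains. Col6a2 had 7.48, 7.21 and 7.94 CPM in EAE+EHP-101 mice, 11.0, 16.4 and 11.6 CPM in EAE mice, and 5.78, 7.37 and 5.73 CPM in Control mice, with EAE above the others, and rose 2.07-fold (log2 1.05, SE 0.16, edgeR adjusted p = 0.000553). It was 1.73-fold lower with EHP-101 (log2 -0.79, SE 0.16, edgeR adjusted p = 0.0134), a call lost without EAE replicate 2 (adjusted p = 0.0510) or treated replicate 2 (0.0616). Col6a1, 85387 bases from Col6a2 on the same strand, was at log2 0.28 in EAE (edgeR adjusted p = 0.162). Col6a3 was at log2 -0.46 (edgeR adjusted p = 0.0541), with all EAE libraries below Control. It passed with the DESeq2 Wald test (0.0299), DESeq2 size factors (0.0481), no filter on low counts (0.0460) or only the groups compared (0.0354). It also passed without Control replicate 1 (0.0269) or 3 (0.0448) or treated replicate 1 (0.0366) or 3 (0.0298). With the length trend removed it was at log2 -0.12 (0.631). The ratio of Col6a3 to Col6a2 in RPKM was 0.294 to 0.479 in treated, 0.170 to 0.262 in EAE and 0.561 to 0.642 in Control libraries, with no overlap between groups. Col9a3, a chain of the cartilage collagen type IX that the cord also expresses, had 27.0, 32.6 and 30.2 CPM in EAE+EHP-101 mice, 35.5, 36.7 and 34.1 CPM in EAE mice, and 19.2, 18.1 and 18.9 CPM in Control mice, without overlap, and rose 1.89-fold (log2 0.92, SE 0.08, edgeR adjusted p = 3.28e-05). Its difference between treated and EAE mice was log2 -0.25 (edgeR adjusted p = 0.0967). Col12a1, a collagen on the surface of fibrils, had 18.4, 21.2 and 18.4 CPM in EAE+EHP-101 mice, 23.6, 27.2 and 24.4 CPM in EAE mice, and 15.6, 20.7 and 17.9 CPM in Control mice, with EAE above the others, and rose 1.39-fold (log2 0.47, SE 0.11, edgeR adjusted p = 0.00520), which was log2 0.84 with the length trend removed. Its difference between treated and EAE mice missed the threshold (log2 -0.38, SE 0.11, edgeR adjusted p = 0.0696). That difference passed with the DESeq2 Wald test (adjusted p = 0.0299), only the groups compared (0.0428), the replicate block (0.0247) or the length trend removed (0.0381). Col8a1, a short-chain collagen of vessel walls, had 2.49, 2.1 and 2.66 CPM in EAE+EHP-101 mice, 4.98, 3.84 and 4.33 CPM in EAE mice, and 2.89, 3.54 and 4.59 CPM in Control mice, and the treated libraries lay below both other groups. Col8a1 was 1.81-fold lower with EHP-101 than in EAE (log2 -0.86, SE 0.19, edgeR adjusted p = 0.0216), a call lost without EAE replicate 1 or 3 or treated replicate 1 or 2 (adjusted p = 0.0524 to 0.0997), and it did not pass in EAE against Control (log2 0.26, edgeR adjusted p = 0.295). Col14a1, another fibril-associated collagen, averaged 1.72 ± 0.217 CPM in EAE+EHP-101, 1.53 ± 0.417 CPM in EAE and 1.51 ± 0.405 CPM in Control and passed in neither comparison.

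The 6 basement membrane members split, with 2 higher and 2 lower in EAE and medians of -0.10 in EAE against Control and 0.08 in EAE+EHP-101 against EAE. The genes of the network-forming chains of type IV collagen, Col4a1 and Col4a2, lie head to head on opposite strands with starts 2 bases apart (Col4a1 at chr8:11198423-11312826). Col4a1 had 35.1, 38.5 and 39.4 CPM in EAE+EHP-101 mice, 43.3, 41.5 and 36.9 CPM in EAE mice, and 46.2, 48.6 and 25.3 CPM in Control mice, and Col4a2 had 58.0, 62.2 and 64.6 CPM in EAE+EHP-101 mice, 56.8, 46.2 and 49.7 CPM in EAE mice, and 73.4, 70.4 and 34.3 CPM in Control mice. Control replicate 3 was the lowest library for both genes. In EAE against Control Col4a1 was at log2 0.02 (edgeR adjusted p = 0.946) and Col4a2 at log2 -0.22 (edgeR adjusted p = 0.450). Without Control replicate 3 both were lower in EAE, Col4a1 by log2 -0.25 (adjusted p = 0.0246) and Col4a2 by log2 -0.53 (adjusted p = 0.000998), so 1 library decides their direction or call. That same omission put Col4a2 higher with EHP-101 than in EAE by log2 0.29 (adjusted p = 0.0457), against 0.27 (edgeR adjusted p = 0.596) with all libraries, and moved the median of the 6 in EAE to -0.39. The ratio of Col4a1 to Col4a2 in RPKM was 0.587 to 0.601 in treated, 0.720 to 0.874 in EAE and 0.611 to 0.718 in Control libraries, with no overlap between groups.

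Col15a1 and Col18a1, whose products link the basement membrane to nearby fibrils, were higher in EAE. Col15a1 had 8.44, 10.9 and 11.5 CPM in EAE+EHP-101 mice, 18.1, 21.3 and 16.8 CPM in EAE mice, and 10.1, 11.0 and 5.80 CPM in Control mice, with EAE above the rest. It rose 2.09-fold in EAE (log2 1.06, SE 0.20, edgeR adjusted p = 0.00205) and was 1.82-fold lower with EHP-101 (log2 -0.86, SE 0.20, edgeR adjusted p = 0.0289), the second call being lost without EAE replicate 1 or 2 or treated replicate 1 or 2 (adjusted p = 0.0792 to 0.144). Col18a1, the source of endostatin, had 9.37, 9.54 and 11.6 CPM in EAE+EHP-101 mice, 14.1, 12.3 and 12 CPM in EAE mice, and 11.0, 9.84 and 5.73 CPM in Control mice, and rose 1.45-fold at the edge of the threshold (log2 0.53, SE 0.19, edgeR adjusted p = 0.0499). Its call was lost when any 1 library other than Control replicate 1 was left out (adjusted p = 0.0545 to 0.154), and the change was log2 0.27 without Control replicate 3. Hemicentin 1 (Hmcn1, chr1:150562500-150993435), a very large extracellular protein, moved the other way, with 24.3, 23.7 and 21.3 CPM in EAE+EHP-101 mice, 12.8, 13.5 and 11.4 CPM in EAE mice, and 25.8, 29.6 and 21.5 CPM in Control mice. All EAE libraries lay below all others, and treated and Control libraries overlapped. Hmcn1 fell in EAE, 2.04-fold lower than in Control (log2 -1.03, SE 0.12, edgeR adjusted p = 0.000107), and was 1.84-fold higher with EHP-101 than in EAE (log2 0.88, SE 0.12, edgeR adjusted p = 0.00239), the single member higher there. At 18316 bases it is the longest member, and with the length trend removed its changes were log2 -0.54 in EAE (adjusted p = 0.00591) and 0.71 with EHP-101 (adjusted p = 0.00523). Frem3, a protein of the epithelial basement membrane family of Fras1, had 2.43, 2.07 and 1.02 CPM in EAE+EHP-101 mice, 0.966, 1.19 and 1.15 CPM in EAE mice, and 2.66, 5.82 and 6.62 CPM in Control mice, and every EAE and treated library lay below Control. Frem3 fell 4.56-fold in EAE (log2 -2.19, SE 0.36, edgeR adjusted p = 0.000962), and its difference between treated and EAE mice was log2 0.74 (edgeR adjusted p = 0.396). Summed over 12 endothelial markers the libraries held 267 to 332 CPM in EAE+EHP-101, 155 to 241 CPM in EAE and 287 to 442 CPM in Control, the lowest Control being replicate 3, and 10 of the 12 fell in EAE, among them the junction gene Cdh5 (log2 -1.34) and the VEGF receptor Kdr (log2 -1.44). With EHP-101 against EAE 1 of the 12 rose, Tie1 (log2 0.84, edgeR adjusted p = 0.0461), a call lost in 8 of the 18 alternatives, among them without Control replicate 2, EAE replicate 2 or 3 or any 1 treated replicate (highest adjusted p = 0.138), and 6 of the 12 rose without Control replicate 3. Over all genes tested 16.7% fell in EAE and 0.43% rose with EHP-101 against EAE. The part of endothelial cells in the basement membrane results was not tested.

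Against Control, EAE+EHP-101 mice had 8 members higher and 2 lower, beside 9.96% and 9.82% of all genes (19.8% in either direction). With library totals in place of scaling factors 8 members were higher and 1 lower, and the calls over all genes split 2176 higher to 1319 lower (62.3% higher) in place of 1669 to 1645 (50.4%). The treated libraries lay above Control without overlap for 8 members and below for 4, beside 19% and 17.5% of all genes, and 28 members overlapped. Ccn5 stayed 9.14-fold above Control (log2 3.19, SE 0.56, edgeR adjusted p = 0.00620), Loxl2 1.83-fold (log2 0.87, SE 0.16, edgeR adjusted p = 0.00767) and Col9a3 1.6-fold (log2 0.68, SE 0.08, edgeR adjusted p = 0.00432), and these 3 calls held under all 18 alternatives. Tnc was 1.55-fold higher (log2 0.63, SE 0.13, edgeR adjusted p = 0.0117), lost without treated replicate 2 (adjusted p = 0.0680). Col1a2 was 1.28-fold higher (log2 0.36, SE 0.09, edgeR adjusted p = 0.0209), lost without Control replicate 1 or 3 or treated replicate 2 or 3 (adjusted p = 0.0512 to 0.101). Bgn, Fmod and Mgp were higher by log2 0.49, 0.87 and 0.63 at adjusted p = 0.0312, 0.0392 and 0.0497, and each was lost under several omissions, reaching 0.131, 0.158 and 0.213 without treated replicate 3. Each call was also lost with the length trend removed, at log2 0.45, 0.86 and 0.36 (edgeR adjusted p = 0.0635, 0.0644 and 0.295). Frem3 remained 2.73-fold lower than Control (log2 -1.45, SE 0.34, edgeR adjusted p = 0.0162), lost without Control replicate 2 or treated replicate 2 or 3 (adjusted p = 0.0548 to 0.0624). Col8a1 was 1.52-fold lower (log2 -0.60, SE 0.19, edgeR adjusted p = 0.0469), lost without any 1 library other than Control replicate 1 or EAE replicate 2, up to adjusted p = 0.169 without treated replicate 2. Col3a1 and Col1a1 did not pass against Control, at log2 0.49 and 0.46 (edgeR adjusted p = 0.0861 and 0.162), and both passed without treated replicate 1, at log2 0.62 and 0.66 (adjusted p = 0.0379 and 0.0286).

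Per kilobase of gene, the order of the members differed between groups. In treated mice Mgp had the highest mean, at 14.9 ± 4.29 RPKM (SD, n = 3), with Col9a3 at 10.5 ± 0.988 and Col4a2 at 9.58 ± 0.522 RPKM, each overlapping its neighbour, and Ccn5 stood 12th at 3.36 RPKM. In EAE decorin was highest in every library, at 22.2 ± 1.31 RPKM, followed by Mgp at 18.5 ± 1.75 and Ccn5 at 18.2 ± 2.07 RPKM, and the last pair did not differ beyond their spread. In Control Mgp at 9.62 ± 2.18, Col4a2 at 9.24 ± 3.39 and Dcn at 7.03 ± 1.21 RPKM had the highest means and did not differ beyond their spread, Col4a2 being lowest in Control replicate 3, and Ccn5 stood 38th of 40 at 0.367 RPKM. Col3a1 was 30th in treated mice at 1.08 RPKM, 11th in EAE at 6.63 RPKM and 32nd in Control at 0.765 RPKM.

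Change and gene length went together among the members. Over the 40 members the log2 fold change had a Spearman correlation with gene length of -0.625 in EAE against Control and 0.563 in EAE+EHP-101 against EAE, all points sharing the same libraries and scaling. The 7 members of 8 kb or more, from Fn1 to Hmcn1, had median changes of 0.02 and -0.06, against 0.92 and -0.47 for the 33 shorter members. Over all genes the level in a library relative to the mean of all libraries correlated with length at -0.335 to -0.0300 in EAE+EHP-101, -0.327 to -0.259 in EAE and 0.244 to 0.410 in Control libraries. With each library's length trend removed 25 members rose and 2 fell in EAE, and 1 rose and 15 fell with EHP-101 against EAE. Mgp lost its call in EAE, while Col5a2 (log2 0.40, adjusted p = 0.0223), Vcan and Fn1 gained one, and Col12a1 gained one with EHP-101 (log2 -0.49, adjusted p = 0.0381). The largest changes hardly moved. Ccn5 was at log2 5.52 and Col1a1 at log2 2.18 in EAE with the trend removed.

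**Figure D4:**
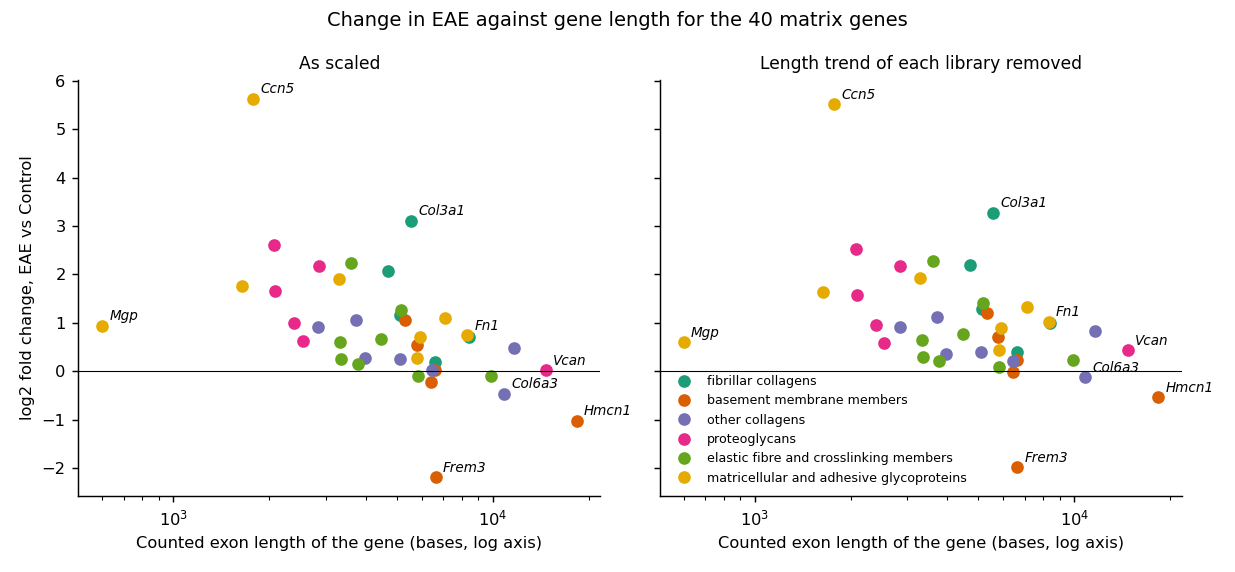
Log2 fold change in EAE against Control of the 40 members plotted against counted gene length in bases (log axis), as scaled on the left and with the length trend of each library removed on the right. The longest members, Hmcn1 and Vcan, lie higher on the right, at -0.54 and 0.43 in place of -1.03 and 0.02, and the shortest, Mgp, lies lower, at 0.60 in place of 0.94.

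Genes that process, degrade and sense the matrix were listed apart from the members. Over all genes tested 20.2% rose and 16.7% fell in EAE, and 0.43% rose and 4.81% fell with EHP-101 against EAE. Of 26 genes of collagen maturation and crosslinking 11 rose and 4 fell in EAE, at a median of log2 0.28, against 0.01 over all genes. The rises included the collagen chaperone Fkbp10 (log2 1.09, edgeR adjusted p = 0.000346), the lysyl hydroxylase Plod3 (log2 0.47), the prolyl hydroxylase subunit P4ha3 (log2 0.88) and the transglutaminase Tgm2 (log2 1.0). With the length trend removed 1 of the 26 fell. With EHP-101 against EAE, at a median of -0.18, 3 fell, Plod2 (log2 -0.41, edgeR adjusted p = 0.0179), P4ha3 (-0.53) and Tgm2 (-0.59), and all 3 calls were lost without EAE replicate 2 or treated replicate 1 or 2, with 1 left without Control replicate 2 or EAE replicate 1. Of 19 genes of matrix degradation and its inhibitors 9 rose in EAE and 7 fell with EHP-101 against EAE, at medians of 0.48 and -0.29. The protease inhibitor Timp1 was at 1.22, 3.98 and 8.33 CPM in EAE+EHP-101 mice, 21.7, 20.7 and 21.9 CPM in EAE mice, and 1.25, 0.411 and 0.852 CPM in Control mice, with EAE above the others, and rose by log2 4.68 (edgeR adjusted p = 0.000125). Mmp12, the macrophage elastase, rose by log2 5.18 (edgeR adjusted p = 0.000184) and was lower by log2 -3.56 with EHP-101 (edgeR adjusted p = 0.00364). The cathepsins Ctsb and Ctsl, lysosomal proteases, rose by log2 1.05 and 0.98 and were at -0.74 and -0.70 with EHP-101, where Mmp14, a membrane-bound collagenase, was at -0.65 (edgeR adjusted p = 0.00259).

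In the TGF-beta pathway, a main inducer of collagen genes in fibroblasts, 8 of 19 genes rose and 3 fell in EAE at a median of 0.17, the falls being 1 without Control replicate 2, EAE replicate 1 or EAE replicate 2 and absent without EAE replicate 3 or with the length trend removed. The falls were close to the share over all genes, of which 20.2% rose and 16.7% fell. With EHP-101 against EAE those shares were 0.43% and 4.81%. The ligand Tgfb1 rose by log2 1.49 (edgeR adjusted p = 7.82e-05), and the target gene Tgfbi by 1.33, with Ccn1 at 2.02. Tgfb2 and Tgfb3 were at log2 0.27 and -0.01, and Ccn2, a target often raised in fibrosis, at 0.11 (edgeR adjusted p = 0.572). With EHP-101 against EAE, at a median of -0.12, 6 fell, among them Tgfb1 (log2 -1.0), the receptor Tgfbr1 (-0.89) and Tgfbi (-0.92), at adjusted p = 0.00419 to 0.00874 from edgeR. Of 22 matrix receptors 9 rose and 3 fell in EAE at a median of 0.11, with 5 rises without Control replicate 2 or EAE replicate 2 and 5 falls without Control replicate 3. Itgb5 (log2 1.31), an integrin chain, rose with the fibronectin receptor chain Itga5 (1.88), the hyaluronan receptor Cd44 (1.39) and the syndecan Sdc4 (0.82), and all 4 were among the 5 that fell with EHP-101 against EAE, where the median was -0.12. Only Itgb5 (log2 -0.81, edgeR adjusted p = 0.00249) kept that call in all 18 alternatives among these 4, and the count was 1 without EAE replicate 1 or 2 or treated replicate 1 or 2, and 3 without Control replicate 2.

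Laminins and the linkers of the basement membrane, 19 genes, had 2 rises (Nid2 and Lamb1, of which 1 was left without any 1 library other than Control replicate 2) and 4 falls in EAE at a median of -0.18, and summed to 452 to 469 CPM in EAE+EHP-101, 406 to 445 CPM in EAE and 337 to 495 CPM in Control. Nidogen 2 (Nid2), which joins laminin to type IV collagen, rose by log2 1.04 (edgeR adjusted p = 0.00205) and was at -0.84 with EHP-101 (edgeR adjusted p = 0.0291), the second call being lost without EAE replicate 1 or 2 or treated replicate 1 or 2. With EHP-101 against EAE the median of the 19 was 0.05, and 1 rose and 1 fell. The rise was Nid1 (log2 0.32, edgeR adjusted p = 0.0484), a call that held in 8 of the 18 alternatives. The falls in EAE, Hmcn2, Frem1, Frem2 and Lamb3, grew to 10 without Control replicate 3. They shrank to 1 without Control replicate 2, EAE replicate 2 or EAE replicate 3 and to 2 without EAE replicate 1. They ended with the length trend removed. Among 14 genes of the perineuronal matrix, which surrounds neurons, 1 rose and 3 fell in EAE at a median of -0.14, with 2 rises and 5 falls without Control replicate 3 and 3 rises and 1 fall with the length trend removed. These falls and those of the laminins and linkers were close to the share over all genes, of which 16.7% fell and 20.2% rose in EAE. With EHP-101 against EAE 0.43% of all genes rose and 4.81% fell. Tenascin R (Tnr) fell by log2 -0.91 (edgeR adjusted p = 8.76e-05), and the hyaluronan synthase Has2 rose by log2 1.19 (edgeR adjusted p = 0.00332), with log2 -0.97 in EAE+EHP-101 against EAE (edgeR adjusted p = 0.0398), the second call being lost in 9 of the 18 alternatives. Of 26 other collagen genes tested 5 rose and 2 fell in EAE at a median of 0.00, and the rises were close to the share over all genes. The basement membrane chain Col4a6 (log2 1.43) and the transmembrane collagen Col13a1 (1.34) had the largest rises. There were 8 rises with the length trend removed and 6 falls without Control replicate 3. With EHP-101 against EAE Col11a2 was at log2 0.46 and Col13a1 at -0.72 (edgeR adjusted p = 0.0483 and 0.0497), and the calls were lost in 10 and 16 of the 18 alternatives.

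Marker genes of the cells that could supply matrix RNA were measured beside the members. Over all genes tested 20.2% rose and 16.7% fell in EAE, and 0.43% rose and 4.81% fell with EHP-101 against EAE. In EAE+EHP-101 against Control 9.96% were higher and 9.82% lower. The 14 fibroblast markers summed to 767 to 791 CPM in EAE+EHP-101, 758 to 788 CPM in EAE and 720 to 775 CPM in Control, most of it Thy1, which neurons also express. Per kilobase of gene the same 14 summed to 395 to 403 RPKM in EAE+EHP-101, 411 to 427 RPKM in EAE and 355 to 386 RPKM in Control. These sums did not overlap between groups. They include S100a4, which rose most in EAE of the markers tested and is not confined to fibroblasts, and its part in the sums was not tested. Of the 11 tested 4 rose in EAE, S100a4, Pi16, Aldh1a2 and Twist1 (the last lost in 10 of the 18 alternatives), and 2 fell with EHP-101, S100a4 and Pi16. Pi16, a marker of adventitial fibroblasts, had 2.30, 2.13 and 3.39 CPM in EAE+EHP-101 mice, 5.28, 4.71 and 4.43 CPM in EAE mice, and 2.23, 2.40 and 1.57 CPM in Control mice, with EAE above the others, and rose by log2 1.21 (edgeR adjusted p = 0.00111), with its fall in treated mice (log2 -0.88, edgeR adjusted p = 0.0280) lost without EAE replicate 1 or 2 or treated replicate 1 or 2. Aldh1a2, a meningeal fibroblast gene, rose by log2 1.63 (edgeR adjusted p = 0.00916), and Control replicate 1 held 4.34 CPM of it against 1.14 and 0.983 CPM in the other Controls. S100a4 rose by log2 3.70 (edgeR adjusted p = 3.31e-05), and is also a gene of immune cells. The receptors Pdgfra and Pdgfrb were at log2 -0.13 and -0.47 in EAE and did not pass, and Twist2, Foxc2 and Slc22a6 held at most 19 counts summed over any group and were not tested. Macrophage markers, 12 of 12 higher in EAE and 11 of 12 lower with EHP-101 against EAE, summed to 208 to 364 CPM in EAE+EHP-101, 915 to 1249 CPM in EAE and 147 to 182 CPM in Control, and 10 of 12 were higher in EAE+EHP-101 than in Control (3 without treated replicate 2 and 6 without treated replicate 3). Mural cell markers summed to 111 to 134 CPM in EAE+EHP-101, 109 to 124 CPM in EAE and 107 to 168 CPM in Control, and 2 of 12 rose and 5 fell in EAE (3 without Control replicate 2). The rises were Tagln (log2 1.52) and Anpep (1.57), and the falls included Rgs5 (-0.86) and Abcc9 (-0.90). With EHP-101 against EAE Tagln (log2 -0.95) and Anpep (-1.37) were the 2 that fell. Their calls in both comparisons held in all 18 alternatives. Of 10 astrocyte markers 5 rose in EAE, Vim by log2 2.08 and Gfap by 0.79. With EHP-101 against EAE 3 fell, Serpina3n (log2 -1.72), Vim (-1.27) and Aldh1l1 (-0.29), of which Aldh1l1 held in 7 of the 18 alternatives. Schwann cell markers summed to 67.3 to 77.7 CPM in EAE+EHP-101, 69.4 to 76.9 CPM in EAE and 69.2 to 79.1 CPM in Control, and bone and cartilage markers to 25.4 to 29.7, 24.3 to 25.4 and 23.8 to 29.8 CPM in those groups. Among 6 Schwann cell genes tested 1 rose in EAE, Egr2, which immune cells also express, among 6 bone and cartilage genes tested Comp rose, a call that held in 5 of the 18 alternatives, and among 5 skeletal muscle genes tested Mb fell, a call lost without Control replicate 1 (adjusted p = 0.162), EAE replicate 2 (0.112) or EAE replicate 3 (0.0883). Of the 10 spinal cord genes 5 fell in EAE, among them the neuronal genes Snap25 (log2 -0.20) and Slc17a6 (-0.49). The rises in EAE among mural, Schwann, and bone and cartilage markers were close to the share over all genes. The part of all these kinds of cells, of gene length and of muscle RNA in the members' results was not tested.

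**Figure D5:**
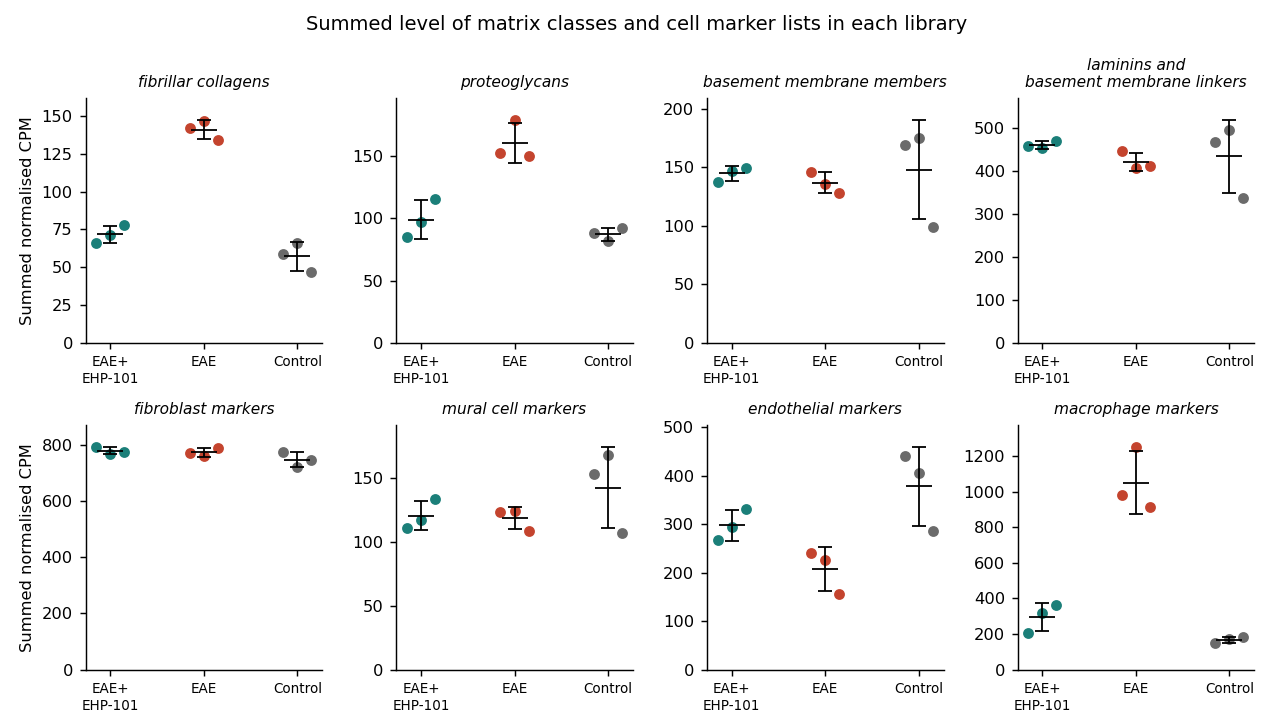
Summed normalised CPM of 4 matrix lists and 4 cell marker lists in each library, on axes from 0, with the mean and SD of the 3 libraries of each group. Fibrillar collagens sum to 134 to 147 CPM in EAE and 77.7 CPM or less elsewhere, and macrophage markers are likewise highest in EAE. Endothelial markers are lowest in EAE. The CPM sums of fibroblast and mural cell markers overlap between groups, while per kilobase the fibroblast sums, which include S100a4, also a gene of immune cells, do not.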

How the data were processed

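RNA sequencing was done on spinal cord of 9 mice, from 1 µg of RNA with a poly-A selecting stranded kit and 50 bp single-end reads, per the labels' protocols. The deposited values are raw counts per gene on mm10, with a gene length (total exon length) and coordinates, as deposited by the authors. The submitters' processing notes name Trimmomatic 0.36, HISAT2 2.1.0, featureCounts 1.6.1 and DESeq2 1.20.0, and the labels give neither the strand setting nor the handling of reads that map to several places. Of 27179 identifiers 1904 had no symbol, and these held 0.311% to 0.619% of the counts.

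The counts of all 9 libraries were fitted with the quasi-likelihood test of edgeR 4.0.16 (R 4.3.3, limma 3.58.1), with TMM scaling, a group-wise filter on low counts that left 16749 genes, and 1 mean per group. P-values were adjusted by Benjamini-Hochberg over all genes tested, also in each refit, and a call is an adjusted p under 0.05. The SE of a log2 fold change was derived from the F statistic. CPM and RPKM were computed from the counts, the TMM library sizes and the deposited length. The pipeline was tested on simulated data. The labels name 3 biological replicates per group without saying what the replicate numbers mean. Replicate pairs differed by more than sampling noise.

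The 18 alternatives were DESeq2 size factors, library totals, the Wald test of DESeq2 1.42.0, 2 other filters, only the groups compared, a replicate block, removal of each library's length trend (lowess, span 0.3), block and length together, and leaving out each library. For genes outside the members these were added after seeing the data. Members and lists were chosen with earlier results of these data known. Library values are given for every fibrillar collagen and for up to 5 called members per role and comparison with the largest change, and up to 4 genes with the smallest p-value are named per other list. Col4a1, Col4a2, Fn1, Tgfb2, Tgfb3, Ccn2 and the genes named beside counts of 5 or fewer were chosen after their values were seen. Exons of Col1a2, Col5a1, Col6a1, Col9a3, Bgn and Fmod overlap a gene on the other strand, so their reads cannot be told apart if strand was not used. The Col9a3 partner Tcfl5 and the other partners held few counts.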

Additional observations from a re-analysis of the deposited data

How the results depend on the processing

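Of the members' calls 20 of 25 in EAE against Control, 11 of 15 in EAE+EHP-101 against EAE and 3 of 10 in EAE+EHP-101 against Control held under all 18 alternatives. Leaving out 1 library at a time gave 19 to 23 members higher and 2 to 5 lower in EAE against Control, 1 to 2 higher and 10 to 16 lower in EAE+EHP-101 against EAE, and 3 to 10 higher and 0 to 2 lower in EAE+EHP-101 against Control. The median log2 change of the basement membrane members then ran from -0.39 to 0.019 in EAE and from -0.26 to 0.12 in EAE+EHP-101 against Control, and that of Col4a1 in EAE ran from -0.25 to 0.15, the negative end being the one reversed call, without Control replicate 3. In EAE+EHP-101 against Control 1 member was lower with library totals, with only the groups compared, with the replicate block or with the length trend removed, and 0 with block and length together, against 2, while 5 were higher with the length trend removed, against 8, and the basement membrane median was 0.22 with block and length together. The cause of these shifts was not tested.

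The deviations of same-numbered libraries from their group means had correlations of -0.0705, -0.110 and -0.101 (EAE and Control), -0.0980, 0.123 and -0.187 (EAE+EHP-101 and EAE) and -0.0393, -0.00864 and -0.0753 (EAE+EHP-101 and Control). Differently numbered pairs ran from -0.175 to 0.246. With 3 libraries per group these values cannot decide whether a number marks a shared origin, which the labels do not say. With the replicate block 21 members rose and 2 fell in EAE, 1 rose and 15 fell in EAE+EHP-101 against EAE, and 6 rose and 1 fell in EAE+EHP-101 against Control.

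Over all genes, the 3391 higher in EAE became 2211 with block and length together and 2160 without EAE replicate 2, and the 2800 lower became 1701 with the length trend removed and 1329 with both. In EAE+EHP-101 against EAE the 72 higher became 151 with DESeq2, 169 with only the groups compared, 44 with the block 249 without Control replicate 3 and 22 to 46 without any 1 of the EAE or EAE+EHP-101 replicates, and the 805 lower became 464, 348 and 501 without EAE replicate 1, EAE replicate 2 and EAE+EHP-101 replicate 2. In EAE+EHP-101 against Control the 1669 higher and 1645 lower became 761 and 792 with the length trend removed, 430 and 479 with both, 237 and 392 without EAE+EHP-101 replicate 2, and 427 and 589 without EAE+EHP-101 replicate 3, and the higher count was 1095 with the block, 942 without Control replicate 1 and 623 without Control replicate 2. With 3 libraries per group, the members with few counts in one group, Ccn5, Frem3 and Lox, carry the widest standard errors.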
